A study of Mus musculus with 24 samples.

Results

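The kinases and ubiquitin ligases of clock proteins were represented by 6 genes out of 54232 in the deposited count table. They were taken by name: the kinase genes Csnk1d, Csnk1e and Gsk3b, and the F-box protein genes Btrc, Fbxw11 and Fbxl21. All 6 were found in the table, and all 6 passed the filter on low counts, as did 20275 genes in all. RNA was measured in the retinal pigment epithelium (RPE), the pigmented sheet behind the retina that takes up the tips shed by photoreceptors. The layer was cut from snap-frozen eyes by laser capture and sequenced from an mRNA library kit, with a question about clock genes and the daily rhythm of that uptake.

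The Per mutant mice were labelled Per1-/-Per2Brdm1, and KO names their libraries. The comparison mice were wild type, named WT. All were males of 6 weeks on a C57BL/6/J x 129 SvEvBrd background, with no drug or other agent named. Eyes were taken at circadian times CT19, CT22, CT1 and CT10 (hours of the internal day), with 3 libraries per genotype and time, 12 KO and 12 WT libraries in all. Both mutations are germline alleles, present in every tissue of the KO mice and not in the RPE alone. Pools made up 5 libraries, each of 2 eyes, 4 of them KO and 1 WT, and each pool is named by a joined number such as 3and5. The labels do not state that every library came from a separate animal, and each p-value therefore reflects the spread among libraries, which may be technical.

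The circadian clock is a feedback loop in which PER and CRY proteins hold back their own transcription. Its pace depends on how long those proteins last. Casein kinase 1 delta and epsilon (Csnk1d, Csnk1e) phosphorylate PER proteins, and the beta-TrCP ligases (Btrc, Fbxw11) bind the phosphorylated PER and direct it to the proteasome. GSK3 beta (Gsk3b) phosphorylates several clock proteins, among them the nuclear receptor REV-ERB alpha. FBXL21 binds CRY proteins and is known to oppose their breakdown by the main nuclear ligase. All of this acts on proteins, whereas the values here are levels of messenger RNA.

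The 24 libraries held 16245067 to 32066263 counts. Levels are given as CPM, the count relative to the library total after TMM scaling, or as RPKM, which is CPM per kilobase of exon. Per1 ran from 76.9 to 252 CPM, with a median of 116.1, in KO libraries and from 24.4 to 186 CPM, with a median of 45.2, in WT libraries. Per2 ran from 75.4 to 153 CPM, with a median of 106, in KO libraries and from 10.2 to 160.3 CPM, with a median of 22.6, in WT libraries. The mutations thus left transcripts that are still counted, and these levels do not check the labels. The 12 RPE markers were all detected, with Rpe65 at 2809 to 7229 CPM, although Best1 was between 0 and 1.91 CPM. The 16 rod markers summed to 20080 to 113700 CPM against 34270 to 66500 CPM for the RPE markers, so rod transcripts were abundant in the captured tissue. At CT1 all 16 rod markers were lower in every KO library than in every WT library. In bulk tissue, fewer cells of a type and less RNA per cell cannot be told apart.

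Promoter windows of the members were read for short motifs known from clock genes. RefSeq windows on GRCm38.p6, from 250 bases before the annotated start to 50 bases after it, were on hand for Csnk1e, Gsk3b, Fbxw11 and Fbxl21. The E-box CACGTG, which CLOCK and BMAL1 bind, was in none of these windows, on either strand. It stood in 7.15% of all 32851 windows. The D-box letters TTATGTAA and TTATGCAA (0.938% and 0.743% of all windows), the cyclic AMP response element TGACGTCA (1.79%) and the AGGTCA core read by ROR and REV-ERB (16.3%) were not in them either, on either strand. None of these motifs contains another. The windows of Fbxw11 and Gsk3b are shown because these genes had the largest genotype differences at CT10 among the well-covered members, and that of Per1 because it is a substrate gene whose window does hold an E-box, in capitals. A match is a description of letters only, and its absence covers only this window.
Fbxw11 promoter, chr11:32642305-32642604, plus strand: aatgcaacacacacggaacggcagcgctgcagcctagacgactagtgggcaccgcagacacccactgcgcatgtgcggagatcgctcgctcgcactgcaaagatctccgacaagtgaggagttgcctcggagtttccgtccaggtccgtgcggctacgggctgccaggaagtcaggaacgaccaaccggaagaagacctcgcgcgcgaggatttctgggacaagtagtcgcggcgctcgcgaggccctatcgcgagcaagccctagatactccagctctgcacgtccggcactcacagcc
Gsk3b promoter, chr16:38088751-38089050, plus strand: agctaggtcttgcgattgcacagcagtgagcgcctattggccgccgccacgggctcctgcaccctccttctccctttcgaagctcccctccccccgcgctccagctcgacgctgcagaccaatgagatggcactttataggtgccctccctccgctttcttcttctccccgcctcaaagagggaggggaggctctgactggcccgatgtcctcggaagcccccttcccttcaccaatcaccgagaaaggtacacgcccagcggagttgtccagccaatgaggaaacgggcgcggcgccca
Per1 promoter, chr11:69098699-69098998, plus strand: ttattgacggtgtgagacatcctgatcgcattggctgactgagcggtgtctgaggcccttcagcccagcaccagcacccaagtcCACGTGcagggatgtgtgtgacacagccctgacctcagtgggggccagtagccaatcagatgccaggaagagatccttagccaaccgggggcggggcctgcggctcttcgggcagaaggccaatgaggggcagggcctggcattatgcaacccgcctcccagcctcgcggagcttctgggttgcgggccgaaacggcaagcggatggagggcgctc
The Fbxw11 window held 62.3% G and C with 31 CpG sites, the Gsk3b window 63% with 21, and the Per1 window 63.3% with 16. The Per1 E-box begins at base 85 of this window, and a second Per1 window, at chr11:69099902-69100201, has none. Cry1, another substrate gene, has one at base 191 of its window. The windows of Per3, Cry2, Nr1d1 and Arntl have no E-box, so those letters do not separate the kinases and ligases from all of their substrates. Of the other motifs, counted on either strand, the Per1 window shown also holds TTATGCAA at base 227 and AGGTCA upstream of it, both left in lower case. The Per3 window holds TTATGTAA at bases 46 and 93, and 1 of the Arntl windows holds AGGTCA at base 282.

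None of the 6 genes differed between KO and WT past the threshold, which was an adjusted p under 0.05 over all 20275 genes by the quasi-likelihood test of edgeR, adjusted after Benjamini and Hochberg. The genotype average is the mean of the KO minus WT differences over the 4 times. In it 0 members passed, against 0.375% of all genes, and 0 members had an unadjusted p under 0.05, against 7.07% of all genes. At single times 0 members passed as well, against 0.0691% of all genes at CT19, 0.227% at CT22, 0.533% at CT1 and 0.0345% at CT10. At an unadjusted p under 0.05 the only member called was Fbxw11 at CT10. The share of all genes with such a p was 3.47% at CT19, 12.7% at CT22, 19.5% at CT1 and 17.9% at CT10. DESeq2 called 0 members in all of these comparisons. With so few genes called, 0 of 6 is near the background, and the size of each difference with its interval is given below.

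**Figure D1:**
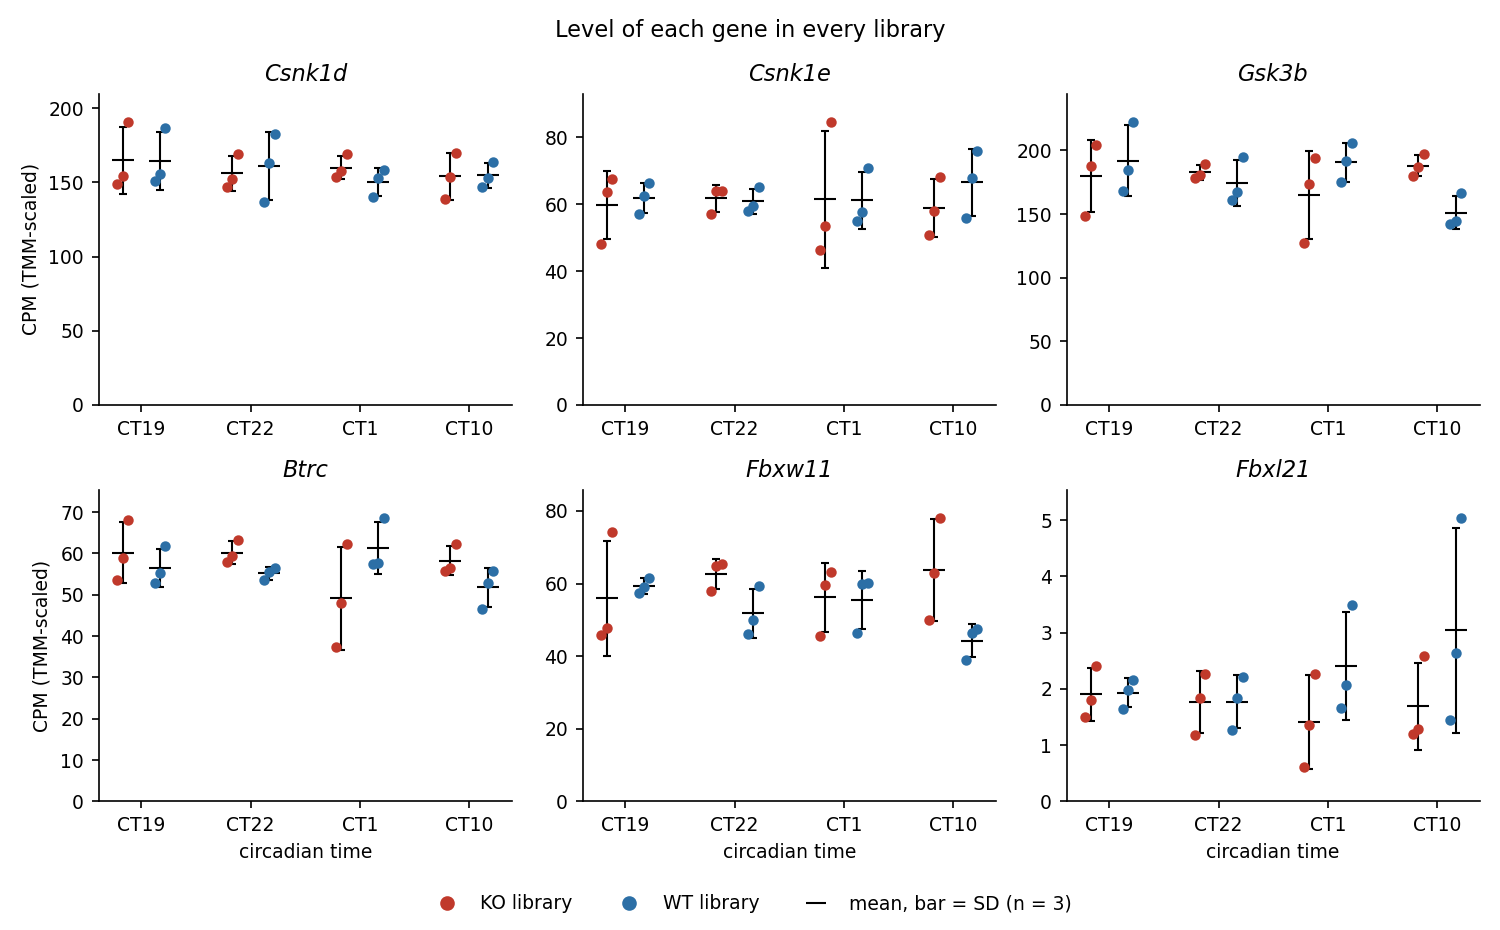
Level of each gene in TMM-scaled CPM (vertical axes, from 0) against circadian time, with each of 3 KO libraries (red) left of each of 3 WT libraries (blue), and the mean with its SD in black. The libraries overlap at most times, and at CT10 all KO libraries lie above all WT libraries for Gsk3b, Btrc and Fbxw11, which with RLE or no scaling factors held for Fbxw11 alone of these 3.

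Csnk1d, the casein kinase 1 delta gene, lies at chr11:120961749-120991330 on the minus strand of GRCm38, the build of all positions here. At CT19 it stood at 191, 149 and 154 CPM in KO libraries, against 156, 187 and 151 CPM in WT libraries. At CT22 the values were 152, 147 and 169 CPM in KO libraries, against 163, 137 and 183 CPM in WT libraries. At CT19 both genotypes covered nearly the same span, with 1 high library each, and at CT22 the WT libraries were spread more widely than the KO libraries. At CT1 the values were 153, 169 and 158 CPM in KO libraries, against 140.2, 153 and 159 CPM in WT libraries. At CT10 they were 169.8, 139 and 154 CPM in KO libraries, against 164, 153 and 147 CPM in WT libraries. With TMM scaling the groups overlapped at all 4 times. Over the times, the KO minus WT difference was 0.01 on the log2 scale (SE 0.08, edgeR adjusted p = 0.995). Its 95% interval, in folds, ran from 0.903 to 1.12.

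Csnk1e, the casein kinase 1 epsilon gene, lies at chr15:79417856-79455566 on the minus strand. At CT19 it stood at 48.1, 63.8 and 67.5 CPM in KO libraries, against 66.3, 57.2 and 62.4 CPM in WT libraries. At CT22 the values were 64.1, 64.1 and 57.2 CPM in KO libraries, against 59.4, 65.1 and 58.1 CPM in WT libraries. The KO libraries were spread more widely than the WT libraries at CT19, and the groups overlapped at both times. At CT1 the values were 46.3, 53.5 and 84.7 CPM in KO libraries, against 55.1, 70.8 and 57.7 CPM in WT libraries. At CT10 they were 50.8, 57.9 and 68.2 CPM in KO libraries, against 67.8, 56 and 75.9 CPM in WT libraries. The highest library of all 24 was KO replicate 5 at CT1, and the lowest was KO replicate 1 at the same time. The average difference was -0.05 (log2, SE 0.09, edgeR adjusted p = 0.968), with a 95% interval of 0.844 to 1.11 fold.

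Gsk3b, the glycogen synthase kinase 3 beta gene, lies at chr16:38089001-38246084 on the plus strand. At CT19 it stood at 188, 204 and 149 CPM in KO libraries, against 185, 168 and 223 CPM in WT libraries. At CT22 the values were 178, 189 and 181 CPM in KO libraries, against 161, 195 and 167 CPM in WT libraries. The groups overlapped at both times. At CT1 the values were 174, 194 and 126.9 CPM in KO libraries, against 192, 206 and 175 CPM in WT libraries. At CT10 they were 180.1, 197 and 187 CPM in KO libraries, against 142, 145 and 166 CPM in WT libraries. At CT10 the lowest KO library was above the highest WT library with TMM scaling but not with RLE or no factors, whereas at CT1 the KO replicate 5 library was the lowest of all 24. The CT10 difference was 0.32 on the log2 scale (SE 0.17), or 1.24 fold with a 95% interval of 0.977 to 1.59 and an edgeR adjusted p of 0.328, and it was 0.17 when only genes with a mean of at least 5 CPM were fitted. Averaged over the times it was 0.02 (SE 0.08, interval 0.899 to 1.15 fold, edgeR adjusted p = 0.988).

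Btrc encodes beta-TrCP1 and lies at chr19:45363734-45530013 on the plus strand. At CT19 it stood at 68.1, 58.8 and 53.6 CPM in KO libraries, against 52.8, 61.7 and 55.2 CPM in WT libraries. At CT22 the values were 58, 63.3 and 59.4 CPM in KO libraries, against 53.6, 55.4 and 56.5 CPM in WT libraries. At CT22 the groups did not overlap with TMM or RLE factors, although they did without factors and the gap between them was small: the difference was 0.13 on the log2 scale (SE 0.16, edgeR adjusted p = 0.81), and 0.04 with the choroid marker score as a covariate. At CT1 the values were 62.2, 47.9 and 37.2 CPM in KO libraries, against 68.5, 57.7 and 57.5 CPM in WT libraries. At CT10 they were 56.6, 55.8 and 62.2 CPM in KO libraries, against 52.9, 46.6 and 55.7 CPM in WT libraries. The lowest KO library at CT10 was only just above the highest WT library with TMM scaling, and not above it with RLE or no factors. Btrc was thus on the low side in KO at CT1 and on the high side at the other times, and none of these differences passed. The CT1 difference was -0.32 (log2, SE 0.16, edgeR adjusted p = 0.271), and it came to -0.13 without KO replicate 5. The average over the times was 0.02 (SE 0.08, interval 0.903 to 1.13 fold, edgeR adjusted p = 0.99).

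Fbxw11 encodes beta-TrCP2, the close relative of beta-TrCP1, and lies at chr11:32642724-32746816 on the plus strand. At CT19 it stood at 74.3, 45.8 and 47.8 CPM in KO libraries, against 57.4, 59.1 and 61.6 CPM in WT libraries. At CT22 the values were 57.9, 65.4 and 64.8 CPM in KO libraries, against 46, 49.9 and 59.4 CPM in WT libraries. The 3 WT libraries at CT19 were close together, and they lay between 1 high and 2 low KO libraries. At CT1 the values were 59.7, 63.3 and 45.5 CPM in KO libraries, against 59.8, 60.2 and 46.4 CPM in WT libraries. At CT10 they were 78, 49.9 and 62.9 CPM in KO libraries, against 39.1, 46.3 and 47.4 CPM in WT libraries. At CT10 every KO library was above every WT library, and the mean was 63.6 ± 14.1 CPM in KO and 44.3 ± 4.56 CPM in WT (SD, n = 3 each).

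This CT10 difference of Fbxw11, 0.52 on the log2 scale (SE 0.19), had the lowest p of the 24 differences between genotypes of a single gene at a single time. It corresponds to 1.44 fold, with a 95% interval of 1.1 to 1.89, and ranked 1313 by p among all genes at that time. Its edgeR adjusted p was 0.168, so it did not pass. Without KO replicate 2 it was 0.31, and over all alternatives tried the adjusted p ran from 0.116 to 0.591. The average over the times was 0.18 (SE 0.09, interval 0.991 to 1.3 fold, edgeR adjusted p = 0.736), and 0.11 without KO replicate 2 at CT19.

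Fbxl21 lies at chr13:56522472-56537898 on the plus strand and had the fewest reads of the 6 genes. Its lowest library, KO replicate 1 at CT1, held 17 reads of it. At CT19 it stood at 2.4, 1.8 and 1.49 CPM in KO libraries, against 2.16, 1.99 and 1.65 CPM in WT libraries. At CT22 the values were 1.84, 1.18 and 2.27 CPM in KO libraries, against 1.83, 2.21 and 1.27 CPM in WT libraries. The groups overlapped at both times. At CT1 the values were 0.611, 1.35 and 2.27 CPM in KO libraries, against 1.66, 2.07 and 3.48 CPM in WT libraries. At CT10 they were 2.58, 1.28 and 1.2 CPM in KO libraries, against 1.45, 2.63 and 5.03 CPM in WT libraries. The WT replicate 4 library at CT10, at 5.03 CPM, was the highest of all 24, where the median was 1.84 CPM. The CT10 difference was -0.85 (log2, SE 0.55, edgeR adjusted p = 0.434) with that library and -0.34 without it. The average over the times was -0.41 (SE 0.28, edgeR adjusted p = 0.857). Its interval of 0.507 to 1.12 fold was the widest of the 6, so a moderate change of Fbxl21 could have been missed. The part of depth in this spread was not tested.

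**Figure D2:**
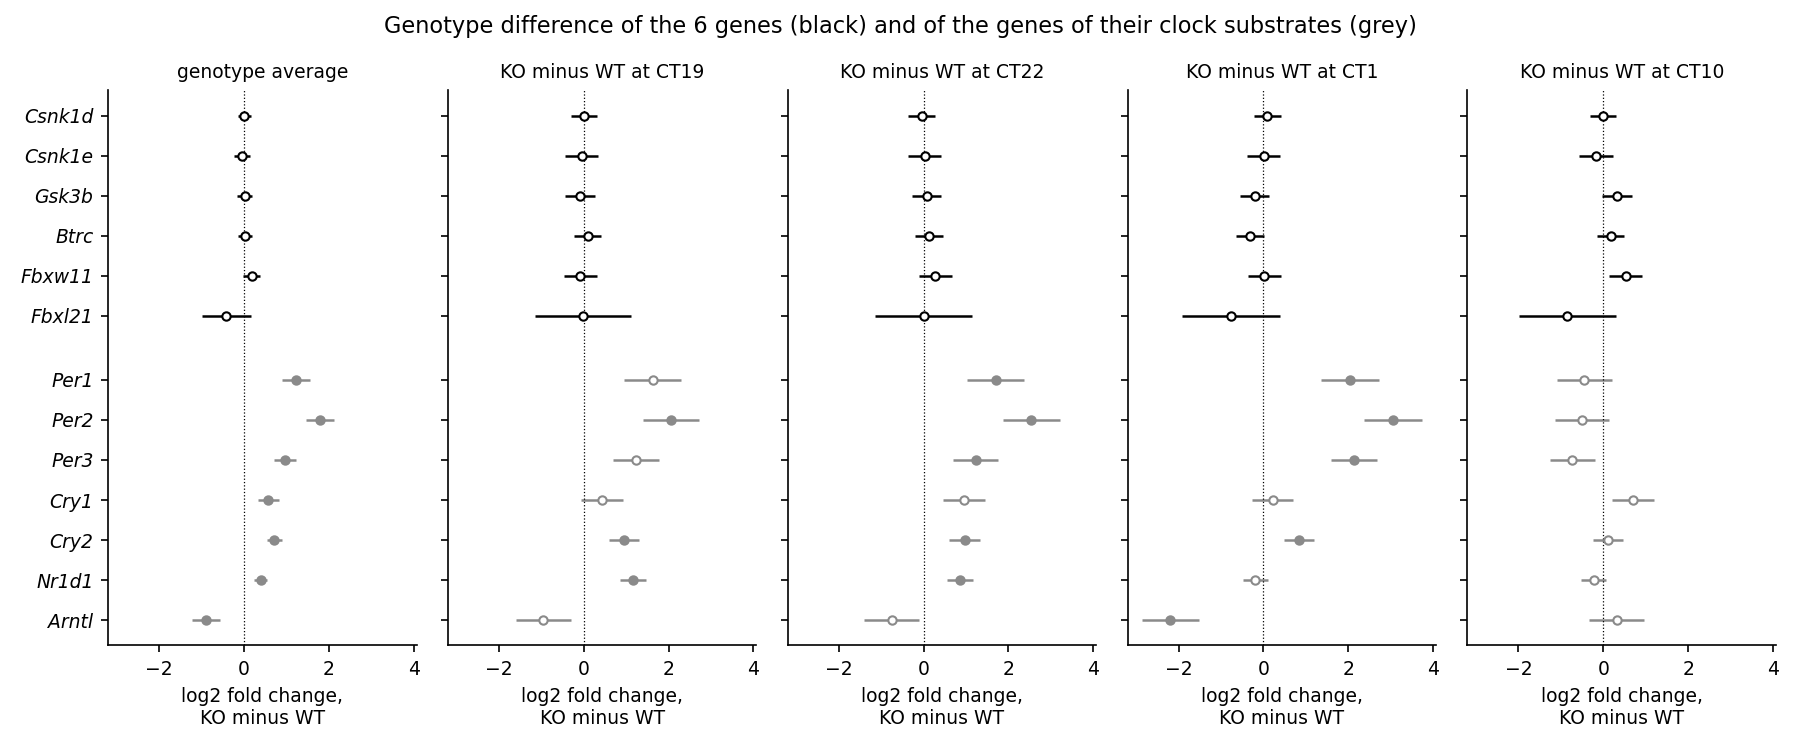
KO minus WT log2 fold change (horizontal axis) of the 6 genes in black and of 7 genes of their substrates in grey, averaged over the times and at each time, with 95% intervals as bars. Filled points passed the threshold and open points did not, and all points of the 6 genes are open.

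With TMM scaling, 4 of the 24 pairs of a gene and a time had KO and WT libraries that did not overlap, and in all 4 KO was the higher genotype. This count depends on the scaling: it was 3 with RLE factors and 2 without factors, again all higher in KO. The first was Btrc at CT22, where 8.01% of all genes had every KO library above every WT library. None were found at CT19 or CT1, where this share of all genes was 3.96% and 10.1%. The other 3 were Gsk3b, Btrc and Fbxw11 at CT10 with TMM factors, where this share was 17.7% and where the median difference of all genes was 0.09 on the log2 scale. With RLE factors or without factors, only Fbxw11 of these 3 kept its libraries apart at CT10, where the share of all genes was 12.9% with RLE factors and 12.3% without, and Csnk1d at CT1 was added, where it was 11.3% and 15.7%. Btrc at CT22 overlapped without factors. No pair had every KO library below every WT library under any of these scalings. With TMM factors, the share of all genes in that direction was 5.31% at CT19, 4.79% at CT22, 14.6% at CT1 and 12.4% at CT10. At CT10 the other 3 genes overlapped, with differences of -0.01 for Csnk1d, -0.17 for Csnk1e and -0.85 for Fbxl21. Genes listed as markers of cell types also differed at CT10, and which cells their transcripts came from was not tested. Of the 12 genes listed as inner retina markers, 11 had the higher mean in KO, 6 of them without overlap, Grm6 and Glul among them, and Rbpms was lower in every KO library than in every WT library. Their sum, 1727 to 2230 CPM in KO libraries and 1147 to 1326 CPM in WT libraries, was mostly Glul, at 1407 to 1840 CPM in KO libraries and 868 to 1084 CPM in WT libraries. Without Glul the sum was 319.9 to 491 CPM in KO libraries and 242 to 313 CPM in WT libraries. The largest part of that was Trpm1, which overlapped, at 152.7 to 289.8 CPM in KO libraries and 119.4 to 184.8 CPM in WT libraries. Prkca came next, at 88.71 to 95.73 CPM in KO libraries and 63.8 to 75.72 CPM in WT libraries, whereas Grm6 did not exceed 4.827 CPM. Slc17a6 and Pou4f1 were at 0 in 6 of the 24 libraries each and Grm6 in 1. The rod markers overlapped at CT10, at 37300 to 61010 CPM in KO libraries and 29940 to 47880 CPM in WT libraries, with 15 of 16 higher on average in KO. The RPE markers overlapped too, at 50410 to 62620 CPM in KO libraries and 41710 to 53190 CPM in WT libraries, with 8 of 12 higher on average in KO. The melanocyte markers did not overlap, at 749 to 897 CPM in KO libraries and 623 to 712 CPM in WT libraries, with 5 of 6 higher on average in KO. The mural markers went the other way, with 1 of 8 higher on average in KO and 3 lower in every KO library than in every WT library. Of the remaining lists, 3 of 8 fibroblast, 5 of 10 cone, 3 of 6 blood, 6 of 8 immune and 8 of 10 endothelium markers were higher on average in KO. Across the 24 libraries, Gsk3b correlated with the inner retina score at r = 0.69 and Fbxw11 at r = 0.551, with library and depth shared. Fbxw11 correlated with the RPE score at r = 0.429 and with the rod score at r = 0.131. Gsk3b had r = 0.425 with the rod score and 0.0134 with the RPE score. Btrc had r = 0.393 with the inner retina score, 0.436 with the rod score and 0.0499 with the RPE score. It ran against the immune, mural and fibroblast scores, at r = -0.538, -0.502 and -0.497. The part of these transcripts in the CT10 differences was not tested, and with a covariate for the rod score the edgeR adjusted p of Fbxw11 at CT10 was 0.116.

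A single library stood at an edge for several genes at once. KO replicate 5 at CT1 was the highest of all libraries for Csnk1e and the lowest for Gsk3b and Btrc, and it was the lowest KO library for Fbxw11. The same library had the highest TMM factor, 1.13, the lowest RPE marker sum, 34270 CPM, and the highest fibroblast marker sum, 506.7 CPM. Without it, the CT1 difference was -0.27 for Csnk1e, against 0.01 with it. That of Gsk3b was -0.03, against -0.21 with it. None passed either way, and the part of the library's makeup in these values was not tested.

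No change over circadian time passed for any of the 6 genes. The test asked for any difference among the 4 times within a genotype, and the value given is the log2 range, which is the fitted level of the highest time minus that of the lowest. No member passed in KO, where 0% of all genes passed by edgeR's quasi-likelihood test, 11.7% of all genes had an unadjusted p under 0.05 and DESeq2 called 284 genes, none of them a member. No member passed in WT either, where 0.947% of all genes passed and 19.3% had an unadjusted p under 0.05. At an unadjusted p under 0.05, 0 members were called in either genotype. Csnk1d spanned 0.10 in KO and 0.13 in WT, and Csnk1e spanned 0.07 in KO and 0.13 in WT. The median of all genes was 0.63 in KO and 0.72 in WT, and both kinase genes lay at percentile 1.25 or lower of all genes in each genotype. Since ranges depend on the level of a gene, they were also set beside those of genes within 2-fold of the same mean level. Csnk1d then stood at percentile 3.09 in KO and 1.81 in WT of 2105 such genes. Csnk1e stood at percentile 1.05 in KO and 2.63 in WT of 4556 such genes.

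The other members spanned more, without passing. Gsk3b spanned 0.19 in KO and 0.34 in WT (edgeR adjusted p = 0.984 in KO and 0.454 in WT). Btrc spanned 0.29 in KO and 0.24 in WT (adjusted p = 0.727 in KO and 0.74 in WT). In WT, both genes had their lowest mean at CT10. Fbxw11 spanned 0.19 in KO and 0.42 in WT (adjusted p = 0.972 in KO and 0.448 in WT), and its WT mean was also lowest at CT10. In KO, the CT10 mean was the highest of the 4 for Gsk3b and for Fbxw11. Fbxl21 spanned 0.42 in KO and 0.78 in WT, at percentile 32.5 of all genes in KO and 53.3 in WT. Among genes within 2-fold of the same mean level, Fbxl21 stood at percentile 11.4 in KO and 29.4 in WT. By that measure Gsk3b stood at 16.5 in KO and 26 in WT, and Btrc at 39 in KO and 15.4 in WT. Fbxw11 stood at 16.2 in KO and 47.2 in WT. When the 4 times were ordered by mean level within a genotype, the libraries of neighbouring times overlapped in all 36 pairs over the 6 genes.

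**Figure D3:**
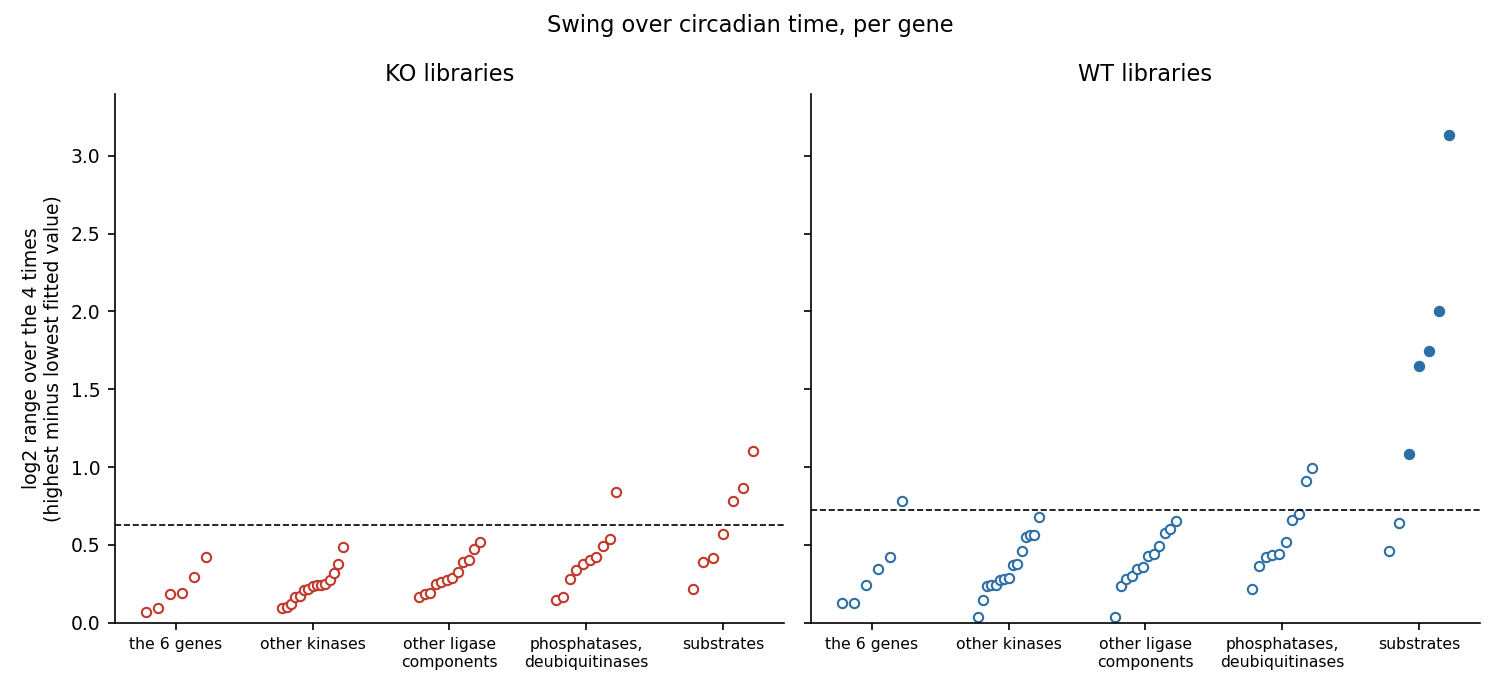
Log2 range over the 4 times (vertical axis) for the members and for the related gene lists on the horizontal axis, with 1 point per gene, in KO libraries on the left and WT libraries on the right, and with dashed lines at the median of all genes tested, 0.63 in KO and 0.72 in WT. Filled points passed the threshold, and all 6 members are open and lie below the lines, except Fbxl21 in WT at 0.78.

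Whether the genotype difference itself changed over the times was tested as an interaction. It passed for 0 of the 6 genes by edgeR's quasi-likelihood test, with 4.62% of all genes passing, and for 0 by DESeq2. At an unadjusted p under 0.05 it called 0 members and 22.3% of all genes. The difference varied over the times by 0.13 for Csnk1d and by 0.20 for Csnk1e. It varied by 0.49 for Btrc, by 0.52 for Gsk3b and by 0.61 for Fbxw11, with edgeR adjusted p of 0.38, 0.427 and 0.368. For Fbxl21 the value was 0.85 (edgeR adjusted p = 0.769). The median over the 6 genes was 0.51, against 1.08 over all genes tested. Over the related lists it was 0.48 for other kinases, 0.58 for other ligase components, 0.74 for phosphatases and deubiquitinases and 2.48 for substrates. Such ranges depend on the level of a gene. When only genes with a mean of at least 5 CPM were fitted, which left out Fbxl21, the median of all genes was 0.72. The members' 0.51 is from the main fit and includes Fbxl21.

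Levels between genes can be compared only per length. Over 24 libraries, Csnk1d averaged 31.5 ± 2.82 RPKM, Gsk3b 18.1 ± 2.27, Fbxw11 13 ± 2.26, Csnk1e 9.34 ± 1.32, Btrc 3.34 ± 0.395 and Fbxl21 0.414 ± 0.185 RPKM (SD). Csnk1d did not go below 27.3 RPKM while Gsk3b did not exceed 22.6, Csnk1e did not go below 7.02 while Btrc did not exceed 4.05, and Btrc did not go below 2.2 while Fbxl21 did not exceed 1.05. Gsk3b (12.9 to 22.6 RPKM) overlapped with Fbxw11 (9.02 to 18), and Fbxw11 with Csnk1e (7.02 to 12.9). Lengths are unions of all annotated exons, and the isoforms in use were not measured. This weighs on Btrc, whose union of 16908 bases is long against 4327 bases for Fbxw11, since in CPM, without length, they were alike at 56.6 and 56.2.

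**Figure D4:**
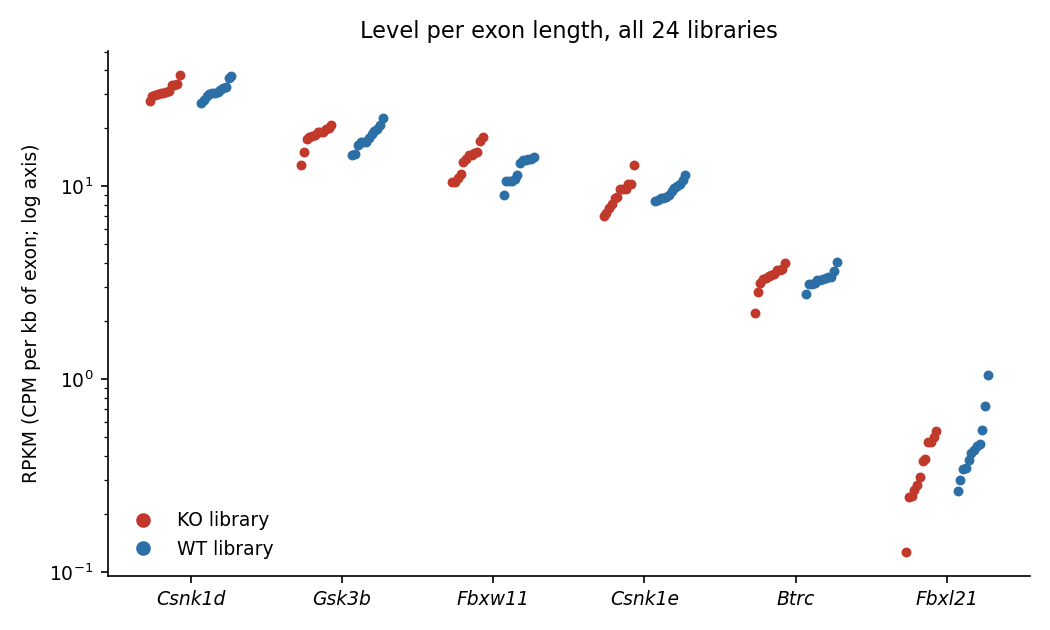
Level per exon length in RPKM (vertical axis, log scale) of the 6 genes in all 24 libraries, with KO libraries in red left of WT libraries in blue. Csnk1d is at the top between 27.3 and 38, and Fbxl21 is at the bottom between 0.127 and 1.05.

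The per-length ratio of Csnk1d to Csnk1e was 3.56 ± 0.815 in KO libraries and 3.34 ± 0.527 in WT libraries (SD, n = 12 each). The per-length ratio of Btrc to Fbxw11 was 0.249 ± 0.0411 in KO libraries and 0.276 ± 0.0362 in WT libraries (SD, n = 12 each). At CT10 it was 0.186 to 0.286 in KO libraries and 0.258 to 0.347 in WT libraries, so the libraries overlapped there too. These ratios were not tested, and for each pair the genotypes' means differed by less than the SD.

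The spread of the kinases over libraries was small. The coefficient of variation over 24 libraries was 8.95% for Csnk1d, 12.5% for Gsk3b and 14.2% for Csnk1e. It was 11.8% for Btrc, 17.4% for Fbxw11 and 44.7% for Fbxl21. The median gene with a mean of 20 to 250 CPM had 19.1%, so the 5 well-covered members all lay below it. Across the libraries, Gsk3b, Btrc and Fbxw11 ran together, at r = 0.583 for Gsk3b with Btrc, 0.531 for Gsk3b with Fbxw11 and 0.493 for Btrc with Fbxw11. Csnk1e ran against both beta-TrCP genes, at r = -0.508 with Fbxw11 and -0.486 with Btrc, but not against Fbxl21, at r = 0.272. Csnk1d and Csnk1e had r = -0.364. These describe 24 libraries that share depth and scaling, with log2(CPM + 1) values. KO replicate 5 at CT1, the highest library for Csnk1e and the lowest for Gsk3b and Btrc, was among them. Its part in these r values was not tested.

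By the same measure, each member was set against 11562 genes with a mean of at least 5 CPM. The gene most like Csnk1d was Tmco3 (r = 0.796), followed by Trpc4ap (0.774) and Tmem184b (0.752). For Csnk1e they were A430046D13Rik (0.823), Ap4m1 (0.815) and Cacnb3 (0.812). For Gsk3b they were Kpna4 (0.833), Zfp148 (0.829) and Hnrnpul2 (0.824). Btrc was followed most closely by Trappc12 (0.846), Dtnb (0.833) and Gm8822 (0.801). The closest match of any member was that of Fbxw11 with Spin1 (0.903), and Polr2m was also close to it (0.861). Fbxl21, the member with the fewest reads, had only weak matches, Sharpin (0.631), Isg20l2 (0.627) and Mrip-ps (0.611).

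Other enzymes that act on clock proteins were also listed. Of 15 other kinases, among them casein kinase 2 and AMP kinase subunits, 0 passed in the genotype average by edgeR (1 at an unadjusted p under 0.05), with a median difference of 0.03 on the log2 scale. Of 13 other ubiquitin ligase components, 12 could be tested, 0 passed (0 at an unadjusted p under 0.05), and the median was also 0.03. The members' own median was 0.01 and that of all genes 0.02. Of 10 phosphatases and deubiquitinases, 1 passed: Usp2, a ubiquitin protease known to act on PER1, rose by 0.79 (log2, SE 0.12, edgeR adjusted p = 0.000239). Usp2 averaged 135 ± 20.5 CPM in KO and 39.2 ± 13.4 CPM in WT at CT22 (SD, n = 3 each), a difference of 1.79 (edgeR adjusted p = 0.000213). With the replicate number as a block the adjusted p of these Usp2 values was 0.0866 for the average and 0.29 at CT22. All 7 genes listed as substrates passed in the genotype average, 6 higher in KO and Arntl lower, with a median difference of 0.72. Per1 and Per2 among them are the mutated genes themselves. The lists were chosen with earlier results of these data known, so these calls are not an independent contrast to the members. Of these calls, those of Per1, Per2, Per3 and Cry2 held under all 33 alternatives, while Cry1 passed under 19, Nr1d1 under 31 and Arntl under 32.

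The interaction test passed for 1 of the 12 ligase components, 3 of the 10 phosphatases and deubiquitinases and 0 of the 15 other kinases. Of all genes, 4.62% passed it, and the counts of 0 and 1 are near that share. Rbx1, the RING subunit shared with the beta-TrCP and FBXL ligases, averaged 92.8 ± 2.85 CPM in KO and 130.9 ± 6.49 CPM in WT at CT1 (SD, n = 3 each). At CT10 it averaged 130.6 ± 14.7 CPM in KO and 96.2 ± 9.55 CPM in WT (SD, n = 3 each). Ppp1cb and Ppp2cb, catalytic subunits of phosphatases 1 and 2A, had the same order of genotypes, lower in KO at CT1 and higher in KO at CT10, although no difference of these 3 genes at a single time passed. Gsk3b and Btrc, among the members, had differences of the same signs at CT1 and CT10, none of which passed. Without KO replicate 5, the CT1 difference of Gsk3b was -0.03. The other members did not have these signs: at CT1 and CT10, Fbxw11 had 0.02 and 0.52, Csnk1d 0.09 and -0.01, Csnk1e 0.01 and -0.17, and Fbxl21 -0.77 and -0.85. The share of all genes with these signs was not counted. Rod markers were also lower in KO at CT1, with sums of 28790 to 34690 CPM in KO libraries and 68060 to 94850 CPM in WT libraries. With a covariate for the rod score, the genotype difference varied by 0.56 for Rbx1, against 0.94 without it, by 0.98 for Ppp1cb, against 1.25, and by 1.15 for Ppp2cb, against 1.19, and none of the 3 passed. With that covariate 19 of all 20275 genes passed, against 937 without it, so the loss of a call was not particular to these 3. The part of rod transcripts in these differences was not tested. Over all 33 alternatives Rbx1 passed under 4, Ppp1cb under 8 and Ppp2cb under 19.

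Position and overlap limit some values. Csnk1d and Fbxw11 lie on chromosome 11 with the targeted Per1, 51.9 Mb and 36.4 Mb from it. Csnk1d shares 1.25% of its exon bases with the antisense gene Gm28192, Csnk1e 4.05% with the antisense gene Gm16059, and Btrc 1.39% with the pseudogene Gm6807 on the other strand. The strand setting of the counting is not given in the sources used here, so reads from those stretches cannot be assigned with certainty. Gsk3b holds small nucleolar RNA genes in its introns, which share 0 exon bases with it.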

How the data were processed

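The deposited table holds raw counts of reads for each Ensembl gene in 24 libraries, made by the authors and not normalized. The submitters' processing notes name the tools Trimmomatic (0.32), HISAT2 (2.1.0), Cufflinks and HTSeq (0.11) and the build GRCm38.p6. Their order and settings, and the strand setting, are not given in the sources used here. There were 0 columns without a sample.

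The main test was the robust quasi-likelihood F test of edgeR (version 4.0.16, R 4.3.3) with TMM scaling, after filterByExpr at a minimum count of 10. A single model of 8 group means had 16 residual degrees of freedom. It gave the KO minus WT difference at each of the 4 times, its mean over them, the differences among times within KO and within WT, and the interaction. P-values were adjusted by Benjamini-Hochberg over 20275 genes, with a threshold of 0.05, and intervals are 95% intervals of the fitted log2 difference. The fit was tested on simulated data: its median estimates were close to the values put in, but part of the altered genes was not called, and the share required of it was lowered after the first run. RPKM used union exon lengths of GENCODE M21 on GRCm38, from which gene coordinates also come. Promoter sequences are RefSeq's on GRCm38.p6, matched by symbol for 4 of the 6 members.

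The members and gene lists were chosen with earlier results of these data known. Every member is named. Genes of the related lists are named where they passed in the comparison described, and for each member the 3 other genes with the highest Pearson r of log2(CPM + 1) over the 24 libraries are named, except 1 that is not reported here. Within groups, the lowest chi-square per df between the counts of any pair of libraries was 29.3, and none was counted as a repeat. Alternatives were other scalings and filters, DESeq2 1.42.0, a replicate block, leaving out each library or the pools, and marker scores as covariates.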

Additional observations from a re-analysis of the deposited data

Results flagged for a closer look

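No value of the 6 members was flagged. For 9 other genes named with them, the KO minus WT difference passed the interaction test over the 4 times (edgeR quasi-likelihood, adjusted over all genes). Of all genes, 4.62% passed that test. The value given is the log2 range of that difference over the times. Among the ligase components and the phosphatases and deubiquitinases it was 0.936 for Rbx1 (adjusted p = 0.0445), 1.25 for Ppp1cb (0.0392), 1.19 for Ppp2cb (0.0299) and 1.77 for Usp2 (0.0236). These calls were often lost: Rbx1 passed under 4 of 33 alternatives, Ppp1cb under 8, Ppp2cb under 19 and Usp2 under 21. Among the substrates it was 2.48 for Per1, 3.55 for Per2, 2.87 for Per3, 1.38 for Nr1d1 and 2.51 for Arntl. Per2 and Per3 passed under all 33 alternatives, Nr1d1 under 32, Per1 under 26 and Arntl under 23.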

How the results depend on the processing

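Under 33 alternatives, 1576 values of the 6 members were recomputed, and 0 passed the threshold. Fbxl21 was not tested where a mean of at least 5 CPM was required. Of the 30 KO minus WT values of the members, 16 changed sign under at least 1 alternative. Without scaling factors, the median difference of all genes was 0.14 at CT1 (-0.01 with TMM) and -0.02 at CT10 (0.09 with TMM). Whether replicate numbers pair the samples was checked by correlating the libraries' deviations from their group means. Of 30 pairs with the same number, 7 had r above 0.1, and pairs with different numbers were not counted in this way. The r of the pairs with the same number ran from -0.213 to 0.422, with a median of 0.0108, against a median of -0.0147 for different numbers. Such medians cannot show whether single numbers link libraries across groups. With a replicate block, which left 7 residual degrees of freedom, 0 members passed, as without it.

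The number of genes called among all genes moved far more. For the genotype average it was 76, and 36 with the replicate block, 378 with no filter, 176 with DESeq2 and 1.61 times the main count under a rod score covariate. At CT19 the count was 14, and 2 with the block, 3 without the pools, 37 with DESeq2 and 8.36 times as many with no filter. At CT22 it was 46, and 4 with the block, 12 without the pools or with the rod score, 15 with the choroid score (endothelium, fibroblast and mural markers), 313 with DESeq2 and 808 with no filter. At CT1 it was 108, and 3 with the block, 8 without the pools, 13 with the rod score, 166 with the choroid score, 202 at a mean of at least 5 CPM, 1107 with DESeq2 and 1556 with no filter. At CT10 it was 7, and 4 without scaling factors, 21 with DESeq2's scaling (RLE), 31 at a mean of at least 5 CPM, 61 with the rod score, 62 with the choroid score, 74 without the pools, 769 with DESeq2 and 999 with no filter. Over the times in KO it was 0, and 2 without the pools, 284 with DESeq2 and 1253 with no filter. Over the times in WT it was 192, and 15 with the block, 25 without the pools, 91 without scaling factors, 965 with the choroid score, 1451 with DESeq2 and 2159 with no filter. For the interaction it was 937, and 3 with the block, 19 with the rod score, 298 without the pools, 326 without scaling factors, 333 with the choroid score, 2501 with DESeq2 and 2686 with no filter. Leaving out 1 library gave 65 to 86, 3 to 17, 12 to 316, 20 to 788, 1 to 33, 0 to 3, 16 to 686 and 20 to 1688 genes in the same order of comparisons. The cause was not tested. Fbxl21 had the fewest reads of the members, and its lowest library held 17 of them.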
